A study of Mus musculus with 42 samples.

Results

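The distal colon comparison of homozygous Mtg16 P209T (T/T) mice with their WT littermates rested on 7 RNA-seq libraries of 42 in the series, chosen as all the libraries in the expression table that sets distal T/T against its matched WT. There were 4 T/T libraries and 3 WT libraries, numbered here as T/T 1 to 4 and WT 1 to 3. All 7 came from unchallenged mice at least 8 weeks old on a C57/BL6 background, bred heterozygote to heterozygote in a T/T colony kept apart from the Mtg16-null colony. T/T mice carried the P209T substitution on both alleles of Cbfa2t3, the gene that encodes MTG16, a change made in the germ line by CRISPR editing. WT littermates did not carry it, and neither group received any treatment. RNA was taken from crypts shaken free by chelation from the 5 cm of colon nearest the anus, so each library was a bulk of epithelium and whatever else came away with it. Here a change in the number of cells of a type and a change in RNA per cell cannot be told apart. The labels did not state that each library came from a separate mouse, so p-values measured the spread between these libraries.

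MTG16 is a transcriptional corepressor without a DNA-binding domain of its own. It is brought to target genes by transcription factors, among them the E proteins (Tcf3, which encodes E2A, Tcf12, which encodes HEB, and Tcf4, which encodes E2-2), basic helix-loop-helix factors that bind E box motifs and that the Id proteins hold off DNA. In the colon, secretory cells arise from progenitors that express Atoh1, which is itself a partner of E proteins. Goblet cells then secrete mucus under factors such as Spdef, while enteroendocrine cells follow Neurog3 and secrete hormones. P209T exchanges proline for threonine in the part of MTG16 that meets E proteins, so the comparison asked what the distal epithelium expresses when that contact is weakened but the protein is still made.

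The changed codon is shown because it defines the T/T group. In GENCODE vM21 (mouse build GRCm38), the codon that the name P209T points to was, in the Cbfa2t3-203 transcript of 620 codons, the proline codon CCT in exon 5 of 12, at chr8:122642973-122642975 on the minus strand. The reference coding strand around it is given with that codon in capitals. The other 2 coding transcripts that reach this number, with 559 and 585 codons, held other codons there, so the numbering is that of the longest form.

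Cbfa2t3-203, around the changed codon: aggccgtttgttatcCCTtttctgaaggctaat

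Sequencing gave between 38008528 and 44798151 gene-assigned reads per library, as recovered from the deposited normalized counts. T/T 1 stood apart before any comparison was made. Its median Spearman correlation with the other libraries was 0.964, against 0.986 for T/T 4 and 0.991 to 0.994 for the rest. Its deviation from the mean library was lower the longer the transcript, with a slope of -0.215 against -0.00332 to 0.089 in the other 6 libraries (log2 per log2 length), and Xist stood at 1954 counts where the other female libraries had 26370 and 27630. T/T 4 held 1139 normalized counts over fibroblast markers, with 28.6 to 134.7 in the other libraries, and 3762 over smooth muscle markers, with 1551 to 1993 in the others. The 10 epithelial markers, among them keratins, Cdh1, Cdx1 and Cdx2, summed to 675000 to 824300 counts in every library, and 7 distal HOX genes to 22890 to 27030. Xist and Y-linked genes marked WT 1, T/T 1 and T/T 3 as female and the other 4 as male, so both genotypes held both sexes. Reads from overlapping genes cannot be told apart where they lie on opposite strands, since the use of strand in counting was not given in the sources used here.

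In distal T/T crypts 5 genes rose and none fell. Of 13535 genes averaging 10 or more normalized counts, 0.0369% were higher and 0% lower by limma on log2(normalized count + 1) with a Benjamini-Hochberg adjusted p under 0.05. The 5 were Insrr, Pamr1, Ces1c, Agt and Dmpk. At an unadjusted p under 0.05 there were 406 genes higher (3.00%) and 223 lower (1.65%). edgeR's quasi-likelihood test on the recovered reads called the same 5 genes and none lower, while DESeq2 called 42 higher (0.311%) and 11 lower (0.0815%) of the 13491 to which it gave an adjusted p. Leaving out 1 library at a time, 19 of these 53 DESeq2 calls held in all 7 omissions and 34 were lost in at least 1, so the omissions that ended a DESeq2 call are given below beside the gene. Cbfa2t3, Tff3, Dll1, Guca2b, Prss23, Spon2 and Rprm, described below, kept the DESeq2 call in all 7. With 4 libraries against 3, an exact permutation test over samples has 35 groupings. Its one-sided p, when doubled, cannot fall below 0.0571. The test was not used to make calls.

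Insrr encodes the insulin receptor-related receptor, a receptor tyrosine kinase that responds to alkaline pH. The gene (ENSMUSG00000005640.11) lies at chr3:87796951-87816101 on the plus strand, and Pear1 overlaps it on the other strand. Insrr stood at 32.4, 43.1 and 40.5 normalized counts in WT 1, 2 and 3, and at 345.5, 277.6, 442.3 and 369.3 in T/T 1, 2, 3 and 4. Every T/T library was above every WT library with a wide gap. The log2 fold change was 3.17 (SE 0.194, limma adjusted p = 0.00641), and 3.18 without T/T 1 (limma adjusted p = 0.0125).

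Pamr1 encodes a secreted protein with a peptidase-like domain, first described in regenerating muscle. It lies at chr2:102550012-102643041 on the plus strand. Its normalized counts were 41.8, 28.4 and 30.9 in WT and 222.7, 159.2, 268.8 and 192.8 in T/T. The groups did not overlap, and the log2 fold change was 2.60 (SE 0.228, limma adjusted p = 0.0255).

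Ces1c, a carboxylesterase that hydrolyses esters of lipids and drugs, lies at chr8:93099015-93131283 on the minus strand. Its counts were 30.3, 17.6 and 24.5 in WT and 210.9, 131.6, 207.8 and 146.9 in T/T, again without overlap. Its log2 fold change was 2.80 (SE 0.261, limma adjusted p = 0.0255). Among the 12 carboxylesterase genes tested it was the one gene called. Ces2e and Ces2c, of another branch of the family, had log2 fold changes of -0.32 and -0.36 and did not pass the test. Carboxylesterases share sequence within the family, so the split of reads between copies is uncertain.

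Agt and Dmpk changed less in fold but with little spread. Agt encodes angiotensinogen, the precursor of the angiotensins, at chr8:124556534-124569706 on the minus strand. Its counts were 101.3, 95.0 and 104.4 in WT and 224.4, 257.1, 246.9 and 249.9 in T/T, a log2 fold change of 1.28 (SE 0.116, limma adjusted p = 0.0255). Dmpk encodes the serine/threonine kinase named for myotonic dystrophy, at chr7:19083849-19093821 on the plus strand. Its counts were 579.4, 703.4 and 611.2 in WT and 1412, 1321, 1615 and 1637 in T/T, a log2 fold change of 1.24 (SE 0.115, limma adjusted p = 0.0255). In both genes every T/T library lay above every WT library. Dmpk is known best from muscle. Its count was highest in T/T 4 (1637), the library with most muscle marker counts, and next in T/T 3 (1615). The part of muscle RNA in these counts was not tested.

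**Figure D1:**
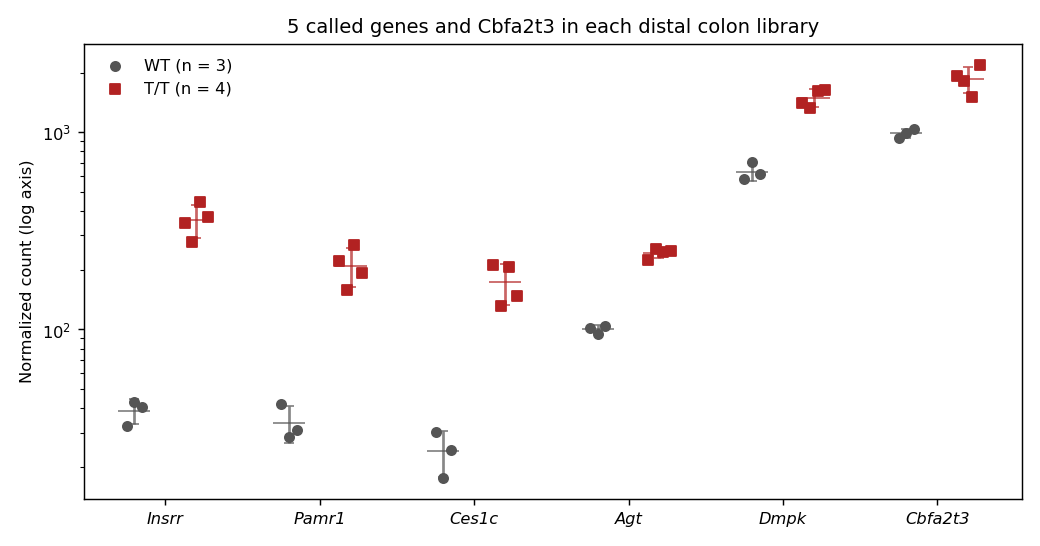
Normalized count (log axis) of the 5 called genes and of Cbfa2t3 in each of the 3 WT (grey circles) and 4 T/T (red squares) distal libraries, with the group mean (horizontal bar) and SD (vertical bar). In each gene the T/T points lie above all WT points, from 277.6 to 442.3 against 32.4 to 43.1 in Insrr.

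All 5 genes kept their call without T/T 1, where their adjusted p lay between 0.0125 and 0.0307. No gene was called once any 1 of the 3 WT libraries or T/T 4 was left out, and Insrr alone remained without T/T 2 or without T/T 3. The adjusted p of the 5 then ranged from 0.0632 to 0.23 without a WT library, while the fold changes moved little (Agt ranged from 1.24 to 1.32 over the 7 omissions). With log2 Xist as a covariate, Insrr, Pamr1 and Ces1c stayed called. Removing each library's trend with transcript length left 4 of the 5, with Agt at an adjusted p of 0.082.

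Promoters of the called genes are shown for their E boxes, the motif E proteins bind, beside that of Neurog3. RefSeq promoter windows (GRCm38.p6) were found for Dmpk, Ces1c, Agt and Neurog3, and the 250 bases before the start are printed 5′ to 3′ on the strand of the gene, with each CANNTG in capitals. The windows are chr7:19083608-19083857 for Dmpk (plus), chr8:93131284-93131533 for Ces1c (minus), chr8:124569707-124569956 for Agt (minus) and chr10:62132840-62133089 for Neurog3 (plus).

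Dmpk: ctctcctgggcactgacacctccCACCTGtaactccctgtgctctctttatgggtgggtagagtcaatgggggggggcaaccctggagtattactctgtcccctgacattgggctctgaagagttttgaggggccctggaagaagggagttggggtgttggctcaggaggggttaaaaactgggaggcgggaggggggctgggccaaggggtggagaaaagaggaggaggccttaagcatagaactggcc
Ces1c: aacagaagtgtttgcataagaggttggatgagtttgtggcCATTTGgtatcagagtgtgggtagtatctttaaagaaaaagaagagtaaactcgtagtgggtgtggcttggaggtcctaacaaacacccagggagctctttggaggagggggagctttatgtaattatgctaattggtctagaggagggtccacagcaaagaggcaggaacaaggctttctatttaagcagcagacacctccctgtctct
Agt: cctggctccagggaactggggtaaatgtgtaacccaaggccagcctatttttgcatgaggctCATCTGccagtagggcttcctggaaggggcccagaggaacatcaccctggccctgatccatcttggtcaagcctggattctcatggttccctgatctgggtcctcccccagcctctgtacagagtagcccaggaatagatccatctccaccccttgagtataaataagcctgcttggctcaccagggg
Neurog3: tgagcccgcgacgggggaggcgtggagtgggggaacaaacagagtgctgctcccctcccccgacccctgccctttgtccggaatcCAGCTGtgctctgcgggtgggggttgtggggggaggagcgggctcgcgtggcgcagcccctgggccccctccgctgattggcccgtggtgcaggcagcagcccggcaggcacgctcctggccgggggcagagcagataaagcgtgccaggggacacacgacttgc

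Each of the 4 windows held 1 match to CANNTG, which reads the same on both strands. The match was CACCTG in Dmpk, CATTTG in Ces1c, CATCTG in Agt and CAGCTG in Neurog3. Of all 32851 promoter windows of this length, 66.2% held at least 1 CANNTG, 13% held CAGCTG and 17.2% held CACCTG on either strand. Of the 42 genes that DESeq2 called higher, 29 had a window, and 22 of these (75.9%) held CANNTG, beside 57.7% of the windows of 10655 tested genes. These matches describe letters in the window and nothing was measured on binding.

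Cbfa2t3 itself stood higher in T/T, with 937.4, 984.5 and 1040 normalized counts in WT and 1919, 1813, 1509 and 2196 in T/T. The groups did not overlap, and 3 annotated genes share its locus (Gm20388, Gm15899 and Gm10612). Its log2 fold change of 0.90 (SE 0.13) did not pass limma (adjusted p = 0.253) but passed DESeq2 (adjusted p = 2.67e-06), and was 0.88 without T/T 1. Its transcript count does not check the genotype, since the allele changes a single residue. Among the E proteins, Tcf3 was at a log2 fold change of 0.07 (SE 0.104), Tcf12 at -0.34 (SE 0.209) and Tcf4 at -0.41 (SE 0.321). T/T 1 was the low library for Tcf12 (1275 against 2147 to 2301 in the other T/T libraries) and Tcf4 (611.4 against 1285 to 1592), and without it the values were -0.14 and -0.09. Of the Id genes, which encode inhibitors of E proteins, Id4 had 137.8 to 168.2 counts in WT and 213.5 to 418.2 in T/T, a log2 fold change of 1.11 (SE 0.245). DESeq2 called it (adjusted p = 0.00679) and limma did not (adjusted p = 0.657). The DESeq2 call was lost in 4 of 7 omissions, those of WT 1, WT 2, T/T 2 and T/T 4 (adjusted p = 0.0613 to 0.226). Id1, Id2 and Id3 lay within -0.13 and 0.18. Across 21 corepressor genes tested, the median log2 fold change was -0.001. Ldb1, a scaffold gene, was higher in every T/T library than in any WT library, with a log2 fold change of 0.25 that did not pass the test.

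Agt and Ces1c share chromosome 8 with Cbfa2t3 (chr8:122625141-122699109). Agt lies 1.9 Mb from it and Ces1c 29.55 Mb. Chromosome 8 held 5.24% of the genes tested, 2 of the 5 limma calls and 5 of the 53 DESeq2 calls. Within 5 Mb of Cbfa2t3, 98 genes were tested, of which 11 (11.2%) were higher in every T/T library than in any WT library, beside 4.39% of all genes, 0 were lower in every one, and the median log2 fold change was 0.049. Whether DNA near the edited site differs between the groups was not tested.

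Genes of the enteroendocrine lineage stood higher in T/T as a group, though none of the 94 list entries tested passed limma. Over all genes 4.39% had every T/T library above every WT library, 3.31% had every one below, 47.4% had a positive fold change and the median log2 fold change was -0.01. Of 21 enteroendocrine transcription factors tested, 18 were positive and 7 were above without overlap, with a median of 0.26, which was 0.425 without T/T 1 and 0.179 without T/T 3. Neurog3, the factor that starts the lineage, had 59.5, 86.2 and 57.5 counts in WT and 102.5, 160.2, 124.9 and 163.2 in T/T. Its groups did not overlap, and Fam241b overlaps it on the other strand. Its log2 fold change was 1.01 (SE 0.234, limma adjusted p = 0.689, DESeq2 adjusted p = 0.0433) and 1.14 without T/T 1. The DESeq2 call was lost in 5 of 7 omissions, those of WT 1, WT 3, T/T 2, T/T 3 and T/T 4 (adjusted p = 0.114 to 0.613).

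Insm1, a zinc-finger factor downstream of Neurog3, had 271.4 to 333.3 counts in WT and 444.9 to 500.9 in T/T (log2 fold change 0.65, SE 0.113, DESeq2 adjusted p = 0.000254, and 0.0538 without WT 2). Pax4 and Fev, factors of serotonin-producing and other endocrine cells, were also above in each T/T library, by 1.36 and 0.70. Neurod1, which follows Neurog3, overlapped between the groups (93.2 to 235.5 in T/T against 119.0 to 150.9 in WT, log2 fold change 0.18), and T/T 1 was its lowest library.

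Of 11 granin and prohormone-processing genes tested, 10 were positive with a median of 0.51, and 6 were above without overlap. Chga, a granin of the secretory granule, had 2001, 2504 and 2187 counts in WT and 3636, 3133, 4711 and 2635 in T/T, a log2 fold change of 0.63 (SE 0.193) that passed neither limma nor DESeq2 (adjusted p = 0.863 and 0.293). Chgb overlapped between groups at 0.52. Pcsk1n, an inhibitor of prohormone convertase, and Cpe, which trims prohormones, did not overlap, at 0.83 and 0.51. In all 4 of these genes T/T 3 was the highest library.

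Of 12 hormone and serotonin synthesis genes tested, 9 were positive, the median was 0.29, and 2 did not overlap. Pyy, peptide YY of L cells, had 3241, 3472 and 2906 counts in WT and 4326, 4140, 4188 and 4388 in T/T, a log2 fold change of 0.41 (SE 0.0779) called by DESeq2 (adjusted p = 0.00351) and not by limma (adjusted p = 0.464). Its DESeq2 call was lost without WT 1, T/T 3 or T/T 4 (adjusted p = 0.174, 0.0544 and 0.0802). Insl5, another product of distal L cells, had 2601 to 2813 counts in WT and 3200 to 4692 in T/T (0.55). Tph1, which makes serotonin, stood at 300.3 to 626.9 in WT and 484.5 to 1149 in T/T, with overlap, at a log2 fold change of 0.64. Gcg (0.37), Sct (0.57), Cck (0.14) and Sst (-0.10) overlapped as well.

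Genes for regulated secretion and electrical activity also leaned higher. Of 28 exocytosis genes tested 21 were positive (median 0.27, 7 above without overlap), and of 22 channels and receptors 19 were positive (median 0.40, 8 above without overlap). Pex5l, a partner of HCN channels, had 22.4 to 39.7 counts in WT and 103.0 to 154.4 in T/T, a log2 fold change of 2.00 (SE 0.242, limma adjusted p = 0.109). The calcium channel gene Cacna1h (0.88), the potassium channel gene Kcnh6 (1.17), the synaptotagmin gene Syt13 (0.80), the active-zone gene Rimbp2 (0.74) and the vesicle gene Baiap3 (0.66) did not overlap between the groups, and DESeq2 called each of them. Cacna1h and Pex5l kept the DESeq2 call in every omission of 1 library. Kcnh6 lost it without WT 3 (adjusted p = 0.0746), Rimbp2 without any 1 WT library or T/T 4 (0.0835 to 0.21), Syt13 without any 1 WT library, T/T 1 or T/T 3 (0.0564 to 0.136) and Baiap3 in every omission but that of WT 2 (0.059 to 0.485).

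**Figure D2:**
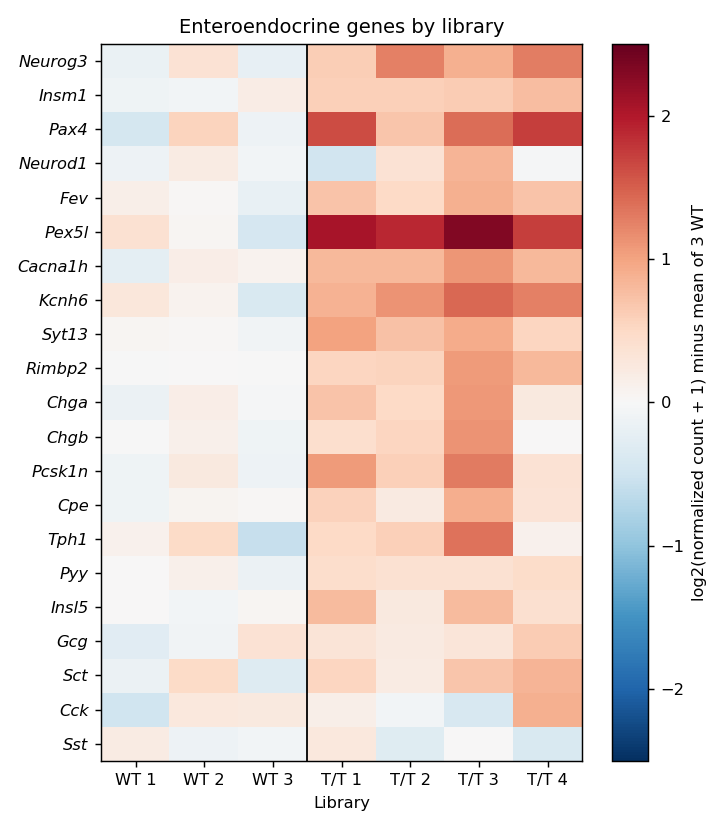
Level of 21 enteroendocrine genes in each library as log2(normalized count + 1) minus the mean of the 3 WT libraries (red above, blue below). Most T/T columns are above the WT mean for factors, granins and secretion genes, while Neurod1 is below it in T/T 1, and Cck and Sst vary in sign among T/T libraries.

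Larger gene sets from the study's supplement, which the paper says were taken from the literature, were counted as well. Of 144 genes tested in the enteroendocrine set, 114 were positive and 40 (27.8%) were above without overlap, with a median of 0.26, and 0.40 without T/T 1. Of 17 genes in the enterochromaffin set, 15 were positive and 4 were above without overlap, with a median of 0.21. Sets for stages of the lineage had medians of -0.04 for 179 early genes, 0.05 for 61 early to intermediate genes, -0.003 for 74 intermediate genes, 0.08 for 379 intermediate to late genes and 0.08 for 463 late genes. In the same order, 36.3%, 55.7%, 47.3%, 67.5% and 69.5% of their genes were positive, beside 47.4% of all genes, and 1.68%, 8.2%, 13.5%, 14.5% and 13.6% were above without overlap, beside 4.39%. Dmpk, in the early to intermediate set, was the one limma call among them. The medians of the early, early to intermediate and intermediate sets lay between -0.063 and -0.004, -0.001 and 0.073, and -0.013 and 0.032 over libraries left out. Differences between these sets were not tested. Of the 42 genes DESeq2 called higher, 11 (26.2%) were in the 5 enteroendocrine lists, the enteroendocrine set or the enterochromaffin set. The share was 1.54% of all genes tested, and of the 11 called lower 0 were. The stage sets were not counted. Members and lists were chosen with earlier results of these data known, so the 26.2% is not independent support. Of 5 enteric neuron and glia markers tested, Tubb3, Ret and Elavl3 were above without overlap. The summed level of that marker list was 180.2 to 200.4 counts in WT and 237.1 to 354.6 in T/T, above in every T/T library. Ret, Snap25 and Tubb3, 3 of the 5, were also in an enteroendocrine list or set, and Elavl3 was in none. The glial genes S100b and Gfap stood at or under 4.77 counts in every library. The part of neural cells in the enteroendocrine values was not tested.

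Hand-listed goblet products went both ways, and in the larger goblet set more genes were below than above without overlap. Of 31 goblet products tested 14 were positive and 17 negative, with a median of -0.06 (-0.136 without WT 2 to -0.024 without T/T 3). Tff3, the trefoil peptide of goblet mucus, had 21090, 23920 and 23070 counts in WT and 50730, 40000, 37520 and 43970 in T/T. No T/T library overlapped WT, and the log2 fold change was 0.92 (SE 0.114, limma adjusted p = 0.112, DESeq2 adjusted p = 1.74e-08). Without T/T 1 it was 0.83 and passed limma (adjusted p = 0.0373). Fcgbp, a large mucus protein, had 251900 to 290500 in WT and 370500 to 465100 in T/T (0.54, SE 0.113, DESeq2 adjusted p = 0.00508, but 0.155 without WT 1 and 0.259 without WT 2).

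Other goblet genes did not follow them. Clca1 (-0.34), Zg16 (-0.25) and Reg4 (0.35) overlapped between genotypes. Itln1, a lectin, was lower in every T/T library (15.3 to 41.5 against 46.0 to 86.6) with a log2 fold change of -1.35. Atoh1, the master factor of the secretory lineage, had 3261, 3746 and 3295 counts in WT and 2424, 2864, 2499 and 3021 in T/T. All T/T libraries were below, by -0.35 on the log2 scale (SE 0.103, limma adjusted p = 0.863). Spdef was at 0.23 and overlapped. Muc2 was not analysed here. Of 11 secretory and goblet transcription factors tested 7 were positive, with a median of 0.01, but 3 were positive without T/T 1, with a median of -0.045, and Atoh1 was the one without overlap. In the larger goblet set 156 of 388 genes were positive (40.2%), with a median of -0.03 (-0.057 to -0.014 over libraries left out). There, 36 (9.28%) were below without overlap, beside 3.31% of all genes, and 11 (2.84%) were above, beside 4.39%. At an unadjusted p under 0.05, 15 of the 388 were lower and 8 higher, beside 1.65% and 3.00% of all genes. None passed limma. DESeq2 called 5 of the 388 higher, Tff3 and Fcgbp among them, and 1 lower, beside 0.311% and 0.0815% of all genes.

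Genes of the Notch pathway, which sets how many progenitors become secretory, were positive in 24 of 28 tested, with a median of 0.17. The positive share was 85.7%, beside 47.4% of all genes. Without overlap, 7 (25%) were above, beside 4.39% of all genes, and 1 (3.57%) was below, beside 3.31%. Dll1, a Notch ligand of secretory progenitors, had 750.6, 768.0 and 746.5 counts in WT and 1036, 1289, 1238 and 1365 in T/T. The WT libraries differed by little, all T/T libraries stood above them, and A930024N18Rik overlaps the gene on the other strand. Its log2 fold change was 0.70 (SE 0.108, limma adjusted p = 0.271), and 0.78 without T/T 1, where it passed (limma adjusted p = 0.0307). Dll3, a divergent ligand of low level, had 6.86 to 8.35 counts in WT and 17.2 to 55.1 in T/T (1.91), and its DESeq2 call (adjusted p = 0.0214) held in 1 of 7 omissions, that of T/T 3. Numbl, related to the Notch antagonist Numb, was at 1.18. Dlk1, a noncanonical ligand, went the other way, with 98.1 to 221.5 in WT and 6.12 to 48.96 in T/T (-2.42, SE 0.675, DESeq2 adjusted p = 0.0373, lost without any 1 WT library or T/T 3, at 0.0913 to 0.922). None of these 4 passed limma with all libraries.

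Stem, tuft and absorptive lists lay near the background. Of 22 stem genes 12 were positive (median 0.01, and -0.048 to 0.07 over libraries left out), and Lgr5, the stem-cell receptor, had 245.9 to 391.5 counts in WT and 182.6 to 389.0 in T/T (0.02, SE 0.302). Ascl2, a stem-cell factor, was at 0.29 and Sp5, a Wnt target, at -1.48, neither past the test. Tuft genes had a median of 0.02 over 23 (-0.06 without WT 2 to 0.183 without WT 1), with Dclk1, a tuft-cell kinase, at 0.02 (SE 0.201), and Cd24a and Siglecf below in all T/T libraries by -0.23 and -0.64. The 34 absorptive genes had a median of 0.03 (-0.104 without WT 1 to 0.131 without WT 3). Guca2b, uroguanylin, was the exception, with 239.0 to 266.2 counts in WT and 372.5 to 475.4 in T/T (0.78, SE 0.124, DESeq2 adjusted p = 3.78e-05). The Wnt list had 15 positive of 24 (median 0.09, and 0.03 without WT 2), led by the secreted inhibitors Wif1 (1.27) and Sfrp5 (1.21) and the receptor gene Fzd9 (1.28), none past the test. The larger absorptive set had a median of 0.01 (-0.037 to 0.046 over libraries left out) over 420 genes. Without overlap, 6 (1.43%) were above and 16 (3.81%) below, beside 4.39% and 3.31% of all genes. The larger tuft set had a median of -0.02 (-0.043 to 0.003) over 434, with 27 (6.22%) above, Agt among them, and 14 (3.23%) below.

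Antimicrobial genes leaned lower. Of 28 antimicrobial and oxidase genes tested, 22 were negative, with a median of -0.19 (-0.349 without WT 3 and -0.097 without WT 2). The positive share was 21.4%, beside 47.4% of all genes. Without overlap, 5 (17.9%) were below, beside 3.31% of all genes, and 0 were above, beside 4.39%. Reg3b, a bactericidal lectin, had 3827, 3550 and 600.6 counts in WT and 31.3, 30.6, 297.4 and 232.6 in T/T. Its groups did not overlap, but WT 3 was far below the other WT libraries. The log2 fold change was -4.46 (SE 1.05, limma adjusted p = 0.748, DESeq2 adjusted p = 0.0276), and DESeq2 did not call it without WT 1, WT 2, T/T 1, T/T 2 or T/T 4 (adjusted p = 0.0599 to 0.469). Reg3g, its close relative, had 1457, 1344 and 257.7 in WT and 47.4, 33.7, 198.3 and 140.8 in T/T (-3.27, SE 0.819), and lost the DESeq2 call without WT 1, WT 2 or T/T 1 (adjusted p = 0.0987, 0.0821 and 0.173). Plet1, a surface protein of progenitors, had 17440, 23680 and 21490 in WT and 4369, 2763, 11740 and 5632 in T/T (-1.96, SE 0.438, DESeq2 adjusted p = 0.0184, lost without any 1 WT library, T/T 1 or T/T 4, at 0.0987 to 0.393).

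Other genes that DESeq2 called lower included Cmah, which hydroxylates sialic acid, at 147.2 to 232.1 in WT and 32.2 to 71.4 in T/T (-1.74). Among them were also the carcinoembryonic family gene Ceacam12 (-1.71), the ubiquitin ligase gene Rnf150 (-2.38), the glycosyltransferase gene B3galt2 (-1.98) and the mast cell chymase gene Cma1 (-1.12). Cmah and Cma1 kept that call in every omission of 1 library. Ceacam12 lost it without WT 2 or WT 3 (adjusted p = 0.0649 and 0.0839), Rnf150 without any 1 WT library (0.0522 to 0.0973) and B3galt2 in every omission but that of T/T 1 (0.0613 to 0.786). Of the further genes it called higher, Prss23, a serine protease, had 66.6 to 118.0 in WT and 229.5 to 376.0 in T/T (1.66), and Spon2, a secreted matrix protein, had 60.6 to 127.3 and 218.3 to 394.7 (1.97). Rprm, a cell-cycle inhibitor, had 134.2 to 200.2 and 325.2 to 361.1 (1.03). Dmwd, the gene beside Dmpk, was at 0.79 and was above WT in every T/T library, but its DESeq2 call held in only 1 of 7 omissions, that of WT 1. All 42 genes higher and 11 lower had groups that did not overlap, beside 1042 of 13535 genes tested. The calls came from these same 7 libraries, so this gives them no separate support. Of the 11 lower, 0 passed limma.

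**Figure D3:**
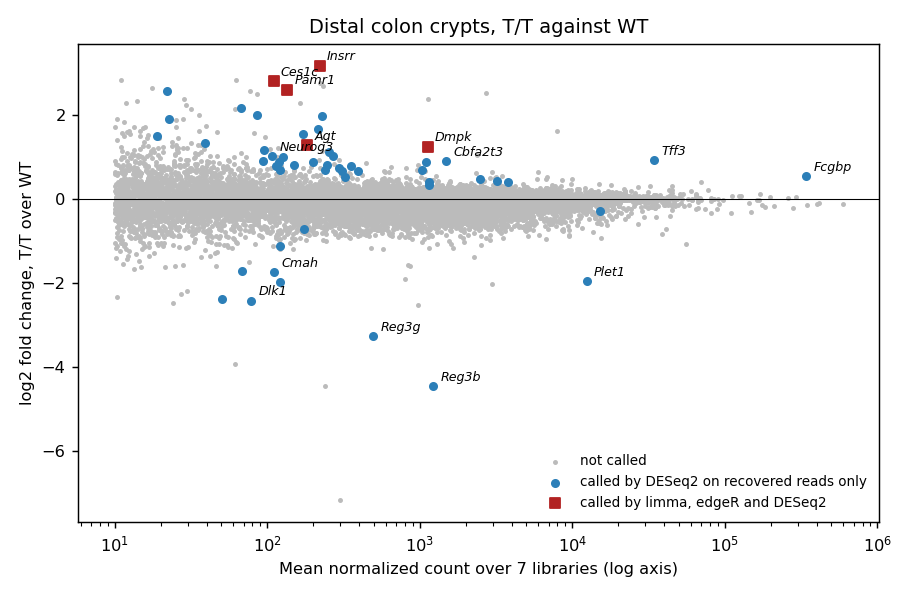
Log2 fold change, T/T over WT, against the mean normalized count over 7 libraries (log axis) for 13535 genes, with the 5 genes called by limma, edgeR and DESeq2 as red squares and the genes called by DESeq2 alone in blue. Insrr, Ces1c and Pamr1 have the largest called rises, and Reg3b and Reg3g lie lowest among the blue points.

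Proliferation and interferon genes showed no called member. Of 30 proliferation genes 25 were negative (median -0.13, and -0.03 without T/T 4 to -0.243 without WT 3), but their summed level ranged from 62850 to 104300 in WT and from 45860 to 107000 in T/T. Of 30 interferon-stimulated genes 24 were negative (median -0.13), and this moved to -0.03 without T/T 1. The MHC class II list had a median of -0.001, and -0.131 to 0.112 over libraries left out. Immediate early genes had one of -0.12 (-0.149 to -0.008). Circadian clock genes had one of 0.23, which was -0.034 without T/T 4, -0.011 without WT 1 and 0.401 without T/T 1. Their summed level was 42350 counts in T/T 4 and 15810 to 27860 in the other libraries. None of these 3 lists held a called member. Markers of T cells had a median of -0.14 (-0.427 without WT 1 to 0.261 without WT 3), with summed levels of 927 to 2935 in WT and 1342 to 1642 in T/T. Red blood cell markers had a median of 0.18 (-1.213 without WT 1 to 1.239 without WT 3), with 41.8 to 1275 in WT and 123.9 to 1330 in T/T. Plasma cell markers had the highest median of the marker lists (0.77, from 0.43 to 1.15 over libraries left out), with 3 genes tested, all positive and overlapping between the groups. Their summed level was 365.4, 300.7 and 712.4 in WT and 756.2, 401 and 571 in T/T 1 to 3, and 1686 in T/T 4, most of it from Jchain, the joining chain of secreted antibodies. Ileal and Paneth markers had a median of -0.53 (-0.812 to -0.306 over libraries left out) over 6 genes, 4 of them negative, with Itln1 the one below without overlap and summed levels of 649.3 to 968.8 in WT and 623.3 to 1398 in T/T. Myeloid (0.16, from 0.088 to 0.289 over libraries left out) and endothelial (0.19, from 0.067 to 0.37) markers held no called gene. The fibroblast and muscle lists had medians of 0.62 and 0.60, which became -0.39 and -0.01 without T/T 4 and 1.383 and 1.223 without T/T 3, and the fibroblast median was 0.162 without WT 1. The part of these other cells in the results above was not tested.

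**Figure D4:**
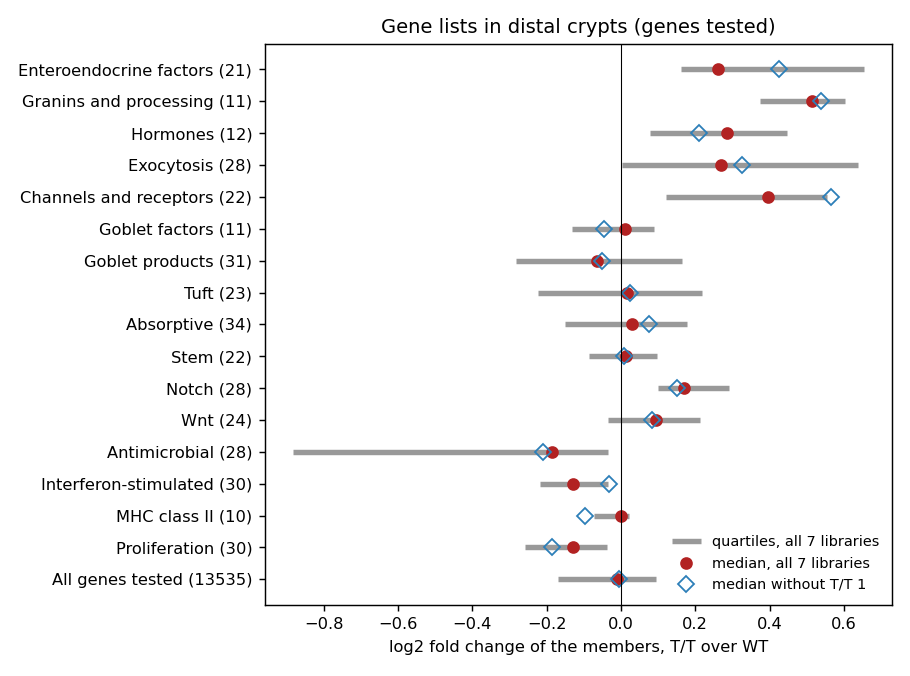
Median (red circle) and quartiles (grey bar) of the log2 fold change of each gene list's tested members in T/T over WT, with the median without T/T 1 (blue diamond) and the number of genes tested in brackets. The 5 enteroendocrine lists have medians of 0.26 to 0.51, against -0.01 for all 13535 genes, and that of the antimicrobial list is -0.19.

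The distal Mtg16-null table, from mice of the other colony that lack MTG16, gave a reference for the same tissue with 4 null and 4 WT libraries. One of its libraries, null 2, went against the distal label, with 1406 counts over the distal HOX genes where the other 7 had 27200 to 33920, so values are given with and without it. Its libraries also came from separate sequencing requests in the labels, with WT 1, WT 2, null 1 and null 2 in the request that held all 7 distal T/T colony libraries and the other 4 in another. There, 0.239% of genes were called, with 641 at an unadjusted p under 0.05. Without null 2, 133 genes were higher and 10 lower of 13720. With the request as a term in the fit, 8 were higher and 0 lower, with 698 at an unadjusted p under 0.05, and without null 2 as well 97 were higher and 7 lower. All 5 genes called in T/T were also higher in null crypts. Insrr was at 4.22 there (limma adjusted p = 0.00116), Dmpk at 1.76 (limma adjusted p = 0.017) and Agt at 1.5 (limma adjusted p = 0.0292). Ces1c was at 2.99 and Pamr1 at 1.29, and both passed only without null 2 (3.49 and 2.5, limma adjusted p = 0.036 and 0.0077). With the request as a term, Insrr (limma adjusted p = 0.00393) and Dmpk (0.039) passed and Agt did not (0.0644), and without null 2 as well all but Ces1c passed (Ces1c 3.35, limma adjusted p = 0.0709). By comparison 54.2% of 13442 genes tested in both had the same sign.

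In one limma fit of both tables, no gene passed for a difference between the T/T and null effects (0% of 13442, with 267 at an unadjusted p under 0.05). This does not show that the effects were equal. The smallest p was that of Cbfa2t3, which stood at 0.90 in T/T and -1.11 in null, a difference of 2.01 (SE 0.354, limma adjusted p = 0.853). Without null 2 the difference passed for 2 genes, Cbfa2t3 (2.23, SE 0.295, limma adjusted p = 0.0274) and Pyy (-1.13, SE 0.141, limma adjusted p = 0.0274). With the request as a term no gene passed with null 2 (330 at an unadjusted p under 0.05), and the same 2 genes passed without it. For Neurog3 the effects were 1.01 in T/T and 2.10 in null crypts, and their difference of -1.09 (SE 0.494) did not pass. The enteroendocrine factor list had a median of 0.26 in T/T, or 0.425 without T/T 1, and 1.04 in null crypts, or 1.22 without null 2. The granin list had 0.51 in T/T, or 0.539 without T/T 1, and 1.01 in null crypts, or 1.34 without null 2. The Notch list had 0.17 and 0.03, or 0.02 without null 2. Atoh1 was at -0.35 in T/T and -0.96 in null crypts, or -1.08 without null 2. The differences between these list medians were not tested.

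Proximal T/T crypts from the same colony had 2 T/T and 2 WT libraries of a separate request, so region and request cannot be told apart, with 0.232% of genes called. Pamr1 and Ces1c were under the count minimum there. Dmpk (1.79, limma adjusted p = 0.0392) and Insrr (1.70, limma adjusted p = 0.0466) passed, and Agt was at 1.09 (limma adjusted p = 0.143). Tff3 was called by limma in proximal crypts at 0.92 (limma adjusted p = 0.038), beside 0.92 in distal crypts, where limma did not call it with all libraries. No gene passed for a difference between the distal and proximal effects (0% of 13113, with 435 at an unadjusted p under 0.05). The nearest was Cacna1h, 0.88 in distal and -1.07 in proximal crypts, a difference of 1.95 (SE 0.223, limma adjusted p = 0.103), and next Atp12a, a proton pump gene, at -0.18 and -3.48 (limma adjusted p of the difference 0.271).

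T/T crypts taken during recovery from dextran sulfate sodium (DSS), an injury to the epithelium, and T/T tumors of the AOM/DSS model each had 3 T/T and 3 WT libraries and no called gene by limma (0% in both), with 1197 of 13648 genes at an unadjusted p under 0.05 after DSS and 392 of 15900 in tumors. Insrr was at 1.76 after DSS and 2.43 in tumors, and Ces1c at 1.76 and 1.86. Agt was at 0.15 and 1.00. Dmpk was at 0.75 and -0.18, and Pamr1 at -0.50 and 0.63. Of the 5 genes, 4 had a positive sign in each, beside 35.4% and 39.8% of all genes sharing their sign with the distal baseline effect.

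**Figure D5:**
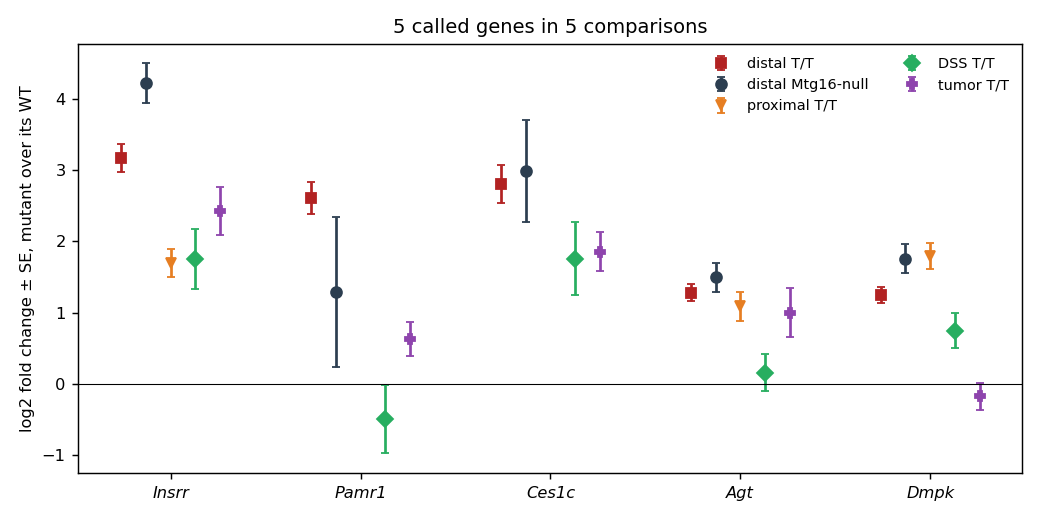
Log2 fold change with its SE for the 5 called genes in distal T/T and in the other comparisons, each against its own WT. Insrr is positive in all 5 comparisons (1.70 to 4.22), while Dmpk is at -0.18 in tumors and Pamr1 at -0.50 after DSS.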

How the data were processed

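RNA-seq libraries were made from poly(A) RNA of distal colon crypts. Per the labels and the study's methods, reads were trimmed with fastp 0.20.0, quantified with Salmon 1.3.0 against GENCODE vM21 transcripts (GRCm38), summed to genes and divided by DESeq2 1.26.0 size factors (R 3.6.3). The signal values deposited by the authors are these normalized counts, with 1 table per comparison, so tests stayed within a table. Values were whole multiples of the worth of 1 read (100% within 0.01), which gave back the reads per gene and library. Authors' fold changes and p-values in these tables were not used.

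Of 17859 genes listed, those with a mean of at least 10 were tested. limma 3.58.1 with a mean-variance trend was run on log2(normalized count + 1), in R 4.3.3, with a Benjamini-Hochberg adjusted p under 0.05 as the threshold, so fold changes of low genes are understated. edgeR 4.0.16 and DESeq2 1.42.0 were run on the recovered reads. The mutant effect was compared between tables as the difference of effects in 1 limma fit. Scripts were checked on simulated data.

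Named genes were Cbfa2t3, E protein and Id genes, called genes, the 3 members of each list with the smallest p, a fixed set of lineage genes, and up to 4 genes per difference of effects. Genes called by DESeq2 alone and markers of other cells were named after their values were seen. Some genes that met these rules are not reported here. The members and lists were chosen with earlier results of these data known. Alternatives covered the pseudocount, low-value filter, scaling, test, an Xist covariate, a replicate block and leaving out each library. No library was a copy of another.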

Additional observations from a re-analysis of the deposited data

Results flagged for a closer look

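A library of a T/T group of 4 was picked out where its gap to the nearest of the others took up more of the group's range than Dixon's critical value allows. Chance picks out about 1 in 20 groups, and 10 of 121 values were picked out here. For single genes the library was T/T 3 for Cacna1h (287 normalized counts) and Wif1 (55.29), T/T 4 for Fcgbp (465100) and Clca1 (90980), and T/T 1 for B3galt2 (16.09) and Tcf12 (1275). For mean log2 levels over a list it was T/T 3 for the distal HOX genes (9.95), T/T 1 for the T cell markers (7.12) and the intermediate enteroendocrine set (8.05), and T/T 4 for the red blood cell markers (8.13).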

How the results depend on the processing

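The 5 genes were called with a pseudocount of 0.1, with no filter, with a mean of at least 50, with a 1.5-fold minimum, with TMM scaling and with edgeR. The number higher was 3 with the Xist covariate, 42 with DESeq2 (11 lower), 10 with array weights (2 lower), and with DESeq2 27 without WT 1 (5 lower), 31 without WT 2 (4 lower), 28 without WT 3 (6 lower), 35 without T/T 1 (10 lower), 34 without T/T 2 (13 lower), 33 without T/T 3 (23 lower) and 37 without T/T 4 (10 lower). Array weights, removal of the length trend, the request term and the fits by edgeR and DESeq2 without a library were chosen after seeing the data. With each library left out in turn, between 0 and 7 genes were higher and between 0 and 1 lower, and no gene was called without any 1 WT library or T/T 4. With the replicate block 0 genes were called. Same-numbered libraries had deviations correlated at 0.0742, 0.157 and -0.276. These values cannot show whether such libraries shared a litter or a preparation, which was not tested. Why the calls changed was not tested.

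Differences of effect called by limma were 0, except that 1 gene passed against null crypts without WT 3 (Trap1, 3.44, adjusted p = 0.000622), 2 without null 2, with or without the request term, and 1 against proximal crypts with the replicate block (Hoxb13, 4.67, adjusted p = 0.0185). With a library left out, null 2 included, the number against null crypts was 0 to 2.

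List medians moved by more than the spread between replicates for goblet products (-0.136 to -0.024 over libraries left out), tuft markers (-0.06 to 0.183), Wnt genes (0.03 to 0.109) and T cell markers (-0.427 to 0.261). Log2 fold changes near 0 turned sign. Tcf3 was at -0.003 with array weights, -0.01 by edgeR and -0.011 by DESeq2 without T/T 1, and Sst at 0.006 by DESeq2 without T/T 4. Cck was at -0.104 with the block, -0.164 with array weights and -0.131 by DESeq2 without T/T 4. Dclk1 was at -0.017 with Xist, -0.028 by edgeR, -0.027 by DESeq2, -0.017 by both without T/T 1, and -0.041 by DESeq2 without T/T 4. Lgr5 was at -0.055 with Xist. Over libraries left out, Id3 ranged from -0.166 to 0.019, Tcf3 from -0.012 to 0.113, Neurod1 from -0.046 to 0.396, Cck from -0.104 to 0.325, Dclk1 from -0.114 to 0.269 and Lgr5 from -0.123 to 0.239.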
